A study of Mus musculus with 9 samples.

Results

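Histone genes were followed in RNA sequencing libraries of mouse embryonic stem cells depleted of Fam60a or of Sin3a. The genes were all those whose GENCODE M21 symbol begins with Hist1h, Hist2h, Hist3h, Hist4h, H2af or H3f3 or equals H1f0 or H1fx, which gave 89 genes in the annotation. Of these, 74 had a row among the 37990 genes counted, and the other members, H1f0 among them, were not analysed here. The rows covered 51 of 64 protein-coding genes of the replication-dependent clusters, called cluster genes from here on, 12 of 13 variant genes, 3 testis-type cluster genes and 8 of 9 pseudogenes and antisense transcripts. The rule uses symbols only and no expression value, though it was set with earlier results of these data known.

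The groups were Fam60a knockdown, Sin3a knockdown and control, with 3 libraries each. All cells were of the E14 line, grown with serum and leukaemia inhibitory factor. They were transduced with a lentiviral pLKO.1 hairpin against Fam60a or Sin3a, or with a scrambled hairpin that has no target in the control. Virus was left on for 24 hours, 12 hours of recovery followed, and all groups were then selected with 2 µg/ml puromycin and propagated 3 times. Polybrene at 10 µg/ml and leukaemia inhibitory factor at 1000 U/ml were the same in all groups. The labels call the 3 libraries of a group biological replicates, and how many hairpins each group used was not given in the sources used here. The titles of the control libraries name neither gene, so these libraries were assigned by elimination.

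The core histones H2A, H2B, H3 and H4 form the nucleosome, and the linker histone H1 binds the DNA that enters and leaves it. Cluster genes supply the bulk of histone protein during S phase, and their messenger RNAs typically end in a short stem-loop in place of a poly(A) tail. The stem-loop binding protein Slbp and the U7 small nuclear ribonucleoprotein direct the cut behind that stem-loop. Variant genes are spread over the genome, are expressed outside S phase as well, and give polyadenylated messenger RNAs. H2afx is known to give both kinds of transcript.

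The stem-loop is shown first, because it separates cluster genes from variants by sequence. The histone stem-loop consensus of 16 bases was searched on the sense strand of the GENCODE M21 transcripts. It was found in 45 of 64 cluster genes, in 1 of 13 variants and in 1 of 3 testis-type genes, against 62 of 20213 protein-coding genes in the files, or 0.307%. The 62 include the histone genes with a row in the files, whereas the 45 also count cluster genes without one. The sites below lie at chr13:23739507-23739532 on the plus strand (Hist1h1c), chr11:58955167-58955192 on the plus strand (Hist3h2a), chr13:23745042-23745067 on the minus strand (Hist1h3c), chr13:22040961-22040986 on the minus strand (Hist1h4i) and chr9:44335235-44335260 on the plus strand (H2afx), all on GRCm38. They run 5′ to 3′ as DNA, with the stem-loop in capitals and the flanks in lower case.
Hist1h1c: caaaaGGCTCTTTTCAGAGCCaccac
Hist3h2a: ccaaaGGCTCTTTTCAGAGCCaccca
Hist1h3c: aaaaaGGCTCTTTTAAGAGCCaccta
Hist1h4i: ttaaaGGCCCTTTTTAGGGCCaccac
H2afx: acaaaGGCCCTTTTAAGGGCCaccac
The same 16 bases, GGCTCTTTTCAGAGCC, stood in 26 of the 45 cluster genes. All 33 stem-loops of H1, H2A, H2B and H3 genes opened with GGCTC, while the H4 stem-loops opened with GGCCC in 10 genes and with GGTCC in 2. The only stem-loop among variants, that of H2afx, opened with GGCCC and was followed by 822 annotated bases. Hist1h2bc, Hist1h1a, Hist1h2af and Hist2h2be, which appear in the results, had no match in their annotated transcripts, which says only that these letters were not in them.

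Cluster and variant genes also differed in promoter letters. RefSeq promoter windows on GRCm38.p6, from 250 bases before to 50 after the start, were matched for 59 of 64 cluster genes and 12 of 13 variants. Motifs were searched on both strands, and a gene was counted if any of its windows held the motif. CCAAT was found for 84.7% of these cluster genes, 75% of the variants and 41.1% of all 27025 genes with a window. It was found for all H1, H2A, H2B and H3 cluster genes with a window but for 3 of 12 H4 genes. TATAAA was found for 55.9% of cluster genes, 8.33% of variants and 15.7% of all. The octamer ATTTGCAT was found for 40.0% of H2B and 35.3% of H2A genes, against 1.97% of all. AAACACA was found for 4 of 5 H1 genes, against 8.22% of all. A match is a description of letters and no evidence of binding.
The 250 bases upstream of the most strongly detected cluster gene, Hist1h1c, and of Hist1h2ac are printed as examples. They lie at chr13:23738557-23738806 on the plus strand and chr13:23683960-23684209 on the minus strand. The start of Hist1h2bc, the second most detected cluster gene, lies on the opposite strand at position 23684199, so the Hist1h2ac run is also the stretch before Hist1h2bc. Capitals mark the 4 searched motifs on either strand.
Hist1h1c: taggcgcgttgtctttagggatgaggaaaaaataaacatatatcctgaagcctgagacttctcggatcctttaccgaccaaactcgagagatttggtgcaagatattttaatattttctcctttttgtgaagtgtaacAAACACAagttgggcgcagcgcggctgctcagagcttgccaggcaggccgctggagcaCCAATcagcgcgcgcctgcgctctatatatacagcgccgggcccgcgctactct
Hist1h2ac: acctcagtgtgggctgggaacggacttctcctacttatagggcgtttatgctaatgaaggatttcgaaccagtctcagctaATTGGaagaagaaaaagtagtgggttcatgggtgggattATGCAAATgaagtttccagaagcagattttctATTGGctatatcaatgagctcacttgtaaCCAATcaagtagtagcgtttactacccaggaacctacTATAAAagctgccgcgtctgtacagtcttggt
The Hist1h1c run held the H1 motif and CCAAT, and the Hist1h2ac run held CCAAT in either orientation, the octamer and TATAAA.

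The libraries held 2607872 to 7674887 counted reads, and only Sin3a knockdown replicate 3 lay below 5511453. That library also correlated least with its own group (mean r = 0.885, against 0.935 to 0.981 for the other 8 libraries, across genes). Relative to its group its median log2 deviation was −0.83 for genes of at most 45.3% GC and 0.58 for genes of at least 54.9% GC. Median GC was 57.2% for cluster genes, 54.4% for variants and 50.2% for all genes tested, so single-gene fold changes in Sin3a knockdown that this library moved by over 1.5 times are also given without it. The targeted genes checked the labels: Sinhcaf, the current symbol of Fam60a, averaged 5.73 ± 0.75 CPM (counts scaled to a common library size) in Fam60a knockdown and 13.5 ± 0.47 CPM in control, and Sin3a averaged 126 ± 13.4 CPM in Sin3a knockdown and 287 ± 21.9 CPM in control (SD, n = 3 each). Sin3a itself averaged 217 ± 9.90 CPM in Fam60a knockdown, and Sinhcaf 15.6 ± 2.66 CPM in Sin3a knockdown. All 8 stem cell markers listed, from Pou5f1 to Fgf4, were detected in every library, and their summed level was 1120 to 1261 CPM in Fam60a knockdown, 1246 to 1364 CPM in Sin3a knockdown and 1332 to 1463 CPM in control.

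Cluster genes gave few reads. Over all 9 libraries they held 2372 reads, against 31998 reads for the variants, which made them 6.90% of the reads of both classes. Of the 51 cluster genes, 8 had no read, 20 had 1 to 20 reads, 15 had 21 to 50 and 8 had more. Those 8 were also the ones that passed the filter on low counts, and they held 71.2% of the cluster reads. Hist1h1c, the gene of the linker histone H1.2, had 681 reads and Hist1h2bc, an H2B gene, had 367, together 44.2%. The labels state total RNA and a stranded TruSeq kit, and whether poly(A) RNA was selected was not given in the sources used here.

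The cluster share of histone reads, which does not depend on the scaling between libraries, was lower in all 3 Fam60a knockdown libraries than in all 3 controls. It was 6.38%, 5.98% and 5.51% in replicates 1 to 3 of Fam60a knockdown, with 95% Wilson intervals of 5.68 to 7.16%, 5.31 to 6.72% and 4.82 to 6.30%. Sin3a knockdown had 8.74% (7.91 to 9.65%), 5.37% (4.63 to 6.21%) and 7.67% (6.59 to 8.90%), and control had 7.34% (6.60 to 8.17%), 7.24% (6.51 to 8.04%) and 7.79% (7.02 to 8.63%). The intervals cover counting error only, and those of some Fam60a knockdown and control libraries overlap. Group means were 5.96 ± 0.44% in Fam60a knockdown, 7.26 ± 1.72% in Sin3a knockdown and 7.46 ± 0.29% in control (SD, n = 3 each). Fam60a knockdown and control thus did not overlap, whereas the Sin3a knockdown libraries lay on either side of the control range. As a log2 ratio of cluster to variant reads, Fam60a knockdown differed from control by −0.35, Sin3a knockdown from control by −0.07 and Fam60a knockdown from Sin3a knockdown by −0.28. Leaving out 1 library at a time gave −0.40 to −0.29 for the first, −0.23 to 0.15 for the second, whose sign turned without Sin3a knockdown replicate 2 and which was −0.13 without replicate 3, and −0.50 to −0.12 for the third. No test was made on these scores, since the members were chosen with results known. The 3 differences were −0.075, −0.06 and −0.02 when every gene was weighted equally as log2(CPM + 1), a scale on which genes near 0 change little.

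Reads of the variants overlapped between the groups. Their summed level was 598.5, 523 and 548 CPM in Fam60a knockdown, 564, 550 and 768 CPM in Sin3a knockdown, and 639, 593 and 584 CPM in control. The value of 768 CPM came from Sin3a knockdown replicate 3. Cluster genes summed to 40.8, 33.2 and 31.9 CPM in Fam60a knockdown, to 54.0, 31.2 and 63.8 CPM in Sin3a knockdown and to 50.7, 46.3 and 49.3 CPM in control, so the Fam60a knockdown libraries again lay below all controls. Compared within a replicate number, Fam60a knockdown was lower than control in 3 of 3 pairs for the cluster sum and for the variant sum alike.

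By histone type, the H2A cluster genes separated both knockdowns from control. Summed H2A was 5.59, 5.52 and 3.32 CPM in Fam60a knockdown and 6.40, 5.57 and 2.44 CPM in Sin3a knockdown, against 9.29, 9.98 and 10.4 CPM in control. The lowest control value exceeded the highest knockdown value. Without Hist1h2af, the H2A gene with the most reads, the sums were 2.72, 3.34 and 2.21 CPM in Fam60a knockdown, 4.88, 3.53 and 2.44 CPM in Sin3a knockdown and 5.54, 6.07 and 7.60 CPM in control, again with no overlap with control. Leaving out Hist3h2a as well, which overlaps Trim17 on the same strand, left 167 reads of 10 genes and sums of 1.66, 2.57 and 1.74 CPM in Fam60a knockdown, 3.05, 2.23 and 2.44 CPM in Sin3a knockdown and 4.72, 3.76 and 4.77 CPM in control. These sums with genes left out were chosen after the values were seen, and the full sums rest on 375 H2A reads in 9 libraries. Sin3a knockdown replicate 3 held 6 of these reads. Among single genes tested, 18.2% lay below all controls in Fam60a knockdown and 18.5% in Sin3a knockdown. No such share was computed for sums of genes.

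H2B, the partner of H2A in the nucleosome, summed to 12.4, 12.1 and 9.80 CPM in Fam60a knockdown and 12.2, 9.84 and 5.69 CPM in Sin3a knockdown, against 13.2, 15.9 and 13.3 CPM in control. These too did not overlap with control, though the nearest libraries, 12.4 and 13.2 CPM, lay close. The H2B sum of Sin3a knockdown replicate 3 rests on 14 reads. Hist1h2bc and Hist2h2be, the H2B genes with the most reads, have 45.9% and 45.3% GC. That library was low for genes of at most 45.3% GC, and how far this touches the H2B values was not tested. H4 summed to 3.02, 3.21 and 4.27 CPM in Fam60a knockdown, 3.35, 1.30 and 7.31 CPM in Sin3a knockdown and 6.03, 5.35 and 6.70 CPM in control. Fam60a knockdown lay below control for H4, while Sin3a knockdown held both the lowest and the highest library. H3 summed to 1.06, 1.28 and 2.21 CPM in Fam60a knockdown, 3.81, 2.23 and 4.88 CPM in Sin3a knockdown and 2.77, 2.31 and 3.73 CPM in control, with Fam60a knockdown below control by the narrowest margin. Linker H1 sums of 18.7, 11.2 and 12.3 CPM in Fam60a knockdown, 28.2, 12.3 and 43.5 CPM in Sin3a knockdown and 19.4, 12.7 and 15.2 CPM in control overlapped in every pair of groups, though within replicate numbers Fam60a knockdown was lower than control and than Sin3a knockdown in 3 of 3 pairs.

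**Figure D1:**
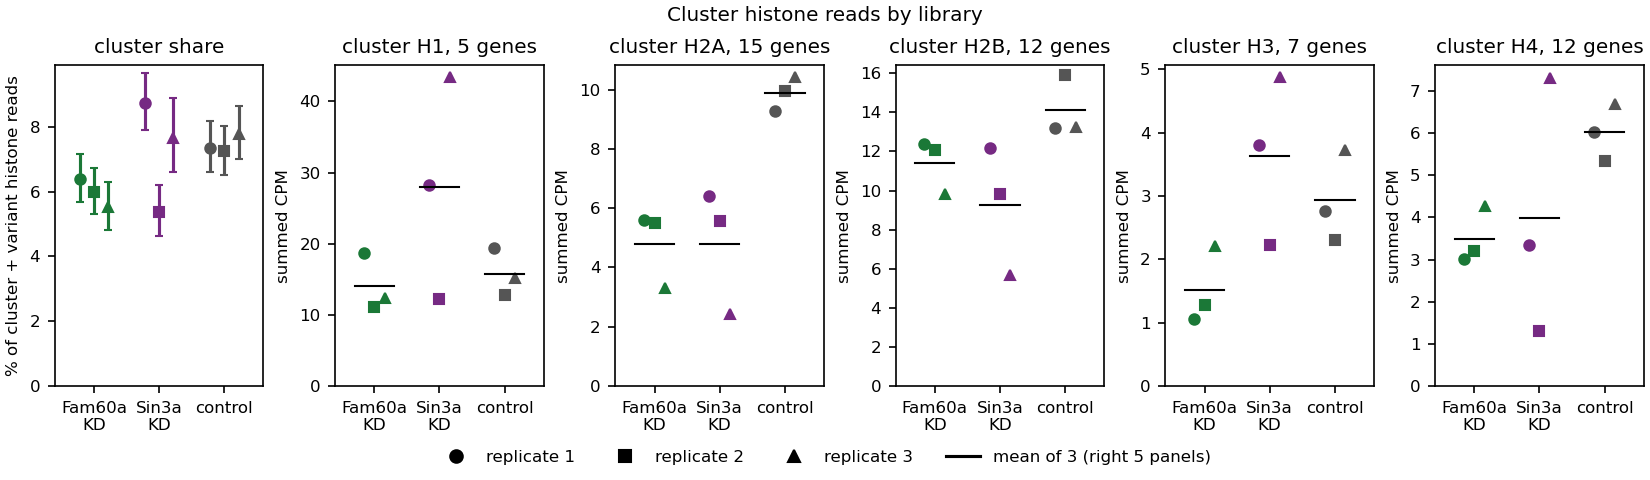
The left panel plots the share of cluster genes among cluster and variant histone reads in percent, with 95% Wilson intervals, and the other 5 panels plot summed CPM of the cluster genes of each histone type, with black lines at group means. Each point is 1 library; Fam60a knockdown lies below control in share and in H2A, H2B, H3 and H4, and Sin3a knockdown lies below control in H2A and H2B.

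Counted gene by gene, 38 of the 43 cluster genes with reads had a lower mean in Fam60a knockdown than in control, that is 88.4%, against 56.4% of all 23743 genes with reads and 61.1% of the 8805 genes with 1 to 50 reads. The 38 included 10 of 12 H2A, 8 of 10 H2B, all 6 H3, all 10 H4 and 4 of 5 H1 genes. Sin3a knockdown was lower than control in 27 of 43, or 62.8%, against 55.0% of all genes with reads and 60.9% of those with 1 to 50 reads. There the H2A genes (10 of 12) and the H4 genes (8 of 10) were mostly lower, while 0 of 5 H1 genes were. Fam60a knockdown was lower than Sin3a knockdown in 26 of 43, or 60.5%, against 44.3% of all genes with reads and 37.4% of those with 1 to 50 reads. Among the variants with reads, 6 of 9 were lower in Fam60a knockdown than in control and 5 of 9 in Sin3a knockdown. These counts are of genes that share libraries, and carry no test.

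Which cluster genes had reads went along with how much of their sequence is their own. Cluster genes are near copies of each other within a type, and a read of 50 bases that fits several genes cannot be assigned to a single gene. Each transcript was cut into all its words of 50 bases, and a word was called unique if it occurred in no other gene of GENCODE M21. The median unique share was 10.4% for the 8 cluster genes with no read and 55.9% for the 43 with reads. Of the 8 genes with no assigned read 7 had under 20% unique words, against 3 of the 43. For Hist2h2aa2 and Hist2h3c1, which have no unique word, a read of that length could not be assigned to the gene alone, so no read does not mean no transcript. The exception was Hist2h2ab, an H2A gene with 79.0% unique words and no read, while Hist1h2af had 133 reads with 20.3%. The 9 variants with reads had 83.1 to 100.0%.

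The classes also differed per unique word. Per 1000 unique words, the variants had 199.4 to 5539 reads over all libraries, with a median of 1399. The 49 cluster genes with any unique word had a median of 52.2 and a maximum of 1873 (Hist1h2af), and 6 of them exceeded the lowest variant, H3f3a. Cluster genes whose annotated transcript continues for more than 100 bases behind the stem-loop had a median of 41.1 reads per 1000 unique words (17 genes), those that stop within 100 bases had 61.0 (18 genes) and those with no stem-loop had 47.0 (14 genes). Counted as reads the order was the other way: genes with more than 100 bases had a median of 32 and a maximum of 681 reads (18 genes), those that stop within 100 bases a median of 12 and a maximum of 46 (19 genes), and those with no stem-loop a median of 19 and a maximum of 367 (14 genes). Every stem-loop cluster gene with over 46 reads thus had the longer annotated end.

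**Figure D2:**
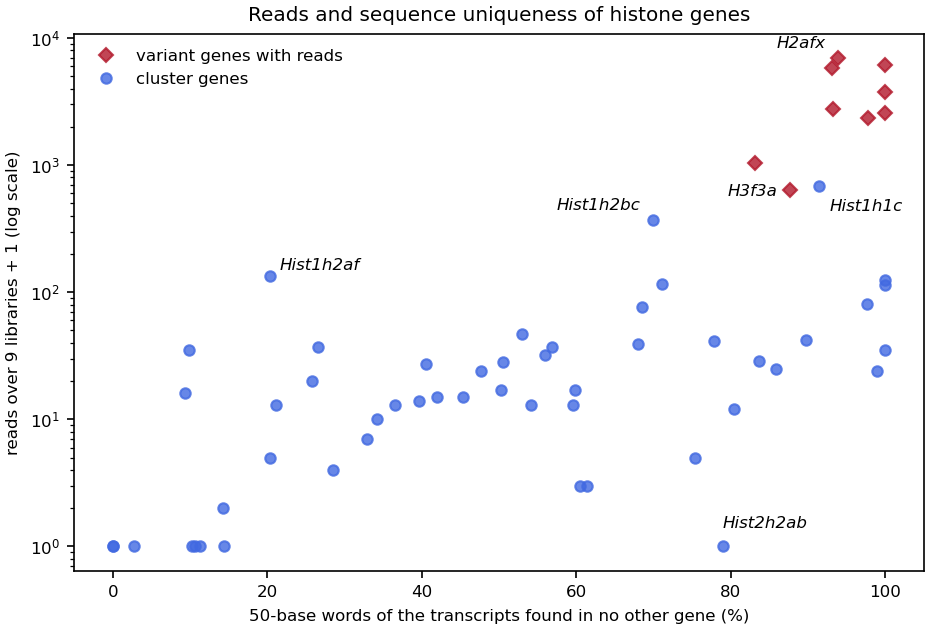
Each point is a histone gene, placed by the percentage of its 50-base words found in no other gene and by its reads over 9 libraries plus 1, on a log scale. Variants sit at the upper right, from 83.1% upward; the cluster genes without reads sit at the bottom, 7 of 8 of them under 20%.

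Of the 17 members that passed the filter on low counts, 8 cluster genes and 9 variants, 0 were called in Fam60a knockdown against control by edgeR's quasi-likelihood test at an adjusted p under 0.05, where 2.92% of all 14465 genes tested were called. DESeq2 also called 0 members, with 8.16% of all genes called, and 0 had an unadjusted p under 0.05, against 15.7% of all genes. In Sin3a knockdown against control 0 members were called by edgeR and 0 by DESeq2, where edgeR called 10.2% and DESeq2 17.3% of all genes, and 2 members had an unadjusted p under 0.05, against 25.9%. For Fam60a knockdown against Sin3a knockdown edgeR and DESeq2 called 0, against 3.06% of all genes by edgeR and 9.21% by DESeq2, and 3 members had an unadjusted p under 0.05, against 18.1%. With the replicate number as a block, edgeR called 0, 1 and 0 members in the 3 comparisons in this order, against 6.13%, 15.0% and 4.65% of all genes. With a GC correction and the block it called 1, 1 and 2, against 11.7%, 23.0% and 10.8%, and on the 6 libraries of each comparison alone 1, 0 and 0, against 12.8%, 5.25% and 0.0%. Without Sin3a knockdown replicate 3 it called 2, 2 and 0, against 16.9%, 24.5% and 14.7%. A p above the threshold does not show that the levels were alike.
The median log2 fold change of the 8 cluster genes was −0.58 in Fam60a knockdown and −0.59 in Sin3a knockdown against control. That of the 9 variants was −0.11 in Fam60a knockdown and −0.01 in Sin3a knockdown, beside −0.02 and −0.01 over all genes tested. All 3 libraries lay below all 3 controls for 5 of 17 members in Fam60a knockdown, where 18.2% of all genes did, and for 4 of 17 in Sin3a knockdown, where 18.5% did. No member lay above all controls in either, where 16.2% and 14.7% of all genes did. Between the knockdowns, 2 members had all 3 Fam60a libraries below all 3 Sin3a libraries, against 11.6% of all genes, and 1 had them above, against 13.9%.

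Among linker histone genes of the clusters, Hist1h1c had the highest level, at chr13:23738808-23740367 on the plus strand in 1 exon. It measured 16.2, 9.37 and 8.38 CPM in Fam60a knockdown, 20.1, 8.91 and 22.3 CPM in Sin3a knockdown and 14.7, 9.11 and 8.94 CPM in control. Replicate 1 was the highest library of both Fam60a knockdown and control, and the groups overlapped. The log2 fold changes were 0.05 ± 0.41 (SE) in Fam60a knockdown, adjusted p = 0.994, and 0.64 ± 0.41 in Sin3a knockdown, adjusted p = 0.369; without Sin3a knockdown replicate 3 the last was 0.43 ± 0.41. Hist1h1a, the gene of H1.1, measured 1.21, 0.642 and 1.42 CPM in Fam60a knockdown, 3.96, 1.30 and 10.2 CPM in Sin3a knockdown and 1.63, 1.45 and 3.43 CPM in control. All Fam60a knockdown libraries were lower than all controls, by a log2 fold change of −0.998 ± 0.734, adjusted p = 0.646. Against Sin3a knockdown the log2 fold change of Fam60a knockdown was −2.12 ± 0.73, the largest difference among the members in this comparison, with an adjusted p of 0.165. It was −1.30 ± 0.61 without Sin3a knockdown replicate 3, adjusted p = 0.184. Hist1h1d, the gene of H1.3, stayed between 0.642 and 1.27 CPM in Fam60a knockdown, 0.928 and 4.47 CPM in Sin3a knockdown and 1.19 and 1.96 CPM in control, with all groups overlapping. Its log2 fold change in Sin3a knockdown was 0.49 with all libraries and −0.08 ± 0.48 without replicate 3.

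For H2A, Hist1h2af measured 2.87, 2.18 and 1.11 CPM in Fam60a knockdown, 1.52, 2.04 and 0 CPM in Sin3a knockdown and 3.75, 3.90 and 2.83 CPM in control. Sin3a knockdown lay below all controls, and Fam60a knockdown overlapped with control through its first replicate. The log2 fold changes were −0.76 ± 0.56 in Fam60a knockdown, adjusted p = 0.654, and −1.34 ± 0.61 in Sin3a knockdown, adjusted p = 0.206, or −0.97 ± 0.43 without its replicate 3. With 20.3% unique words, its reads may be split with other H2A genes. Hist3h2a measured 1.06, 0.770 and 0.474 CPM in Fam60a knockdown, 1.83, 1.30 and 0 CPM in Sin3a knockdown and 0.815, 2.31 and 2.83 CPM in control, with a log2 fold change of −1.35 ± 0.69 in Fam60a knockdown, adjusted p = 0.410. Hist1h2ae did not pass the filter: it had 1 read in each Fam60a knockdown library and 3 in each Sin3a knockdown library, against 11, 4 and 9 reads in control.

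Among H2B genes, Hist1h2bc measured 7.40, 7.44 and 5.85 CPM in Fam60a knockdown, 6.56, 5.38 and 3.25 CPM in Sin3a knockdown and 7.82, 6.94 and 7.002 CPM in control. Sin3a knockdown lay below control in all libraries, with a log2 fold change of −0.48 ± 0.29, adjusted p = 0.348, or −0.27 ± 0.25 without replicate 3, adjusted p = 0.457, and Fam60a knockdown overlapped with control at −0.07 ± 0.29, adjusted p = 0.985. Hist2h2be, at chr3:96221119-96223738 on the plus strand, measured 2.12, 2.57 and 1.74 CPM in Fam60a knockdown, 1.22, 1.11 and 0.406 CPM in Sin3a knockdown and 1.47, 4.63 and 1.79 CPM in control. Sin3a knockdown was below both other groups without overlap. Its log2 fold change was −1.38 ± 0.55 against control, adjusted p = 0.152, or −1.16 ± 0.57 without replicate 3, and the unadjusted p of 0.0336 was among those under 0.05. Hist3h2ba had 40 reads in all and did not pass the filter.

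The H4 gene Hist1h4i, at chr13:22040636-22041362 on the minus strand, had even values within Fam60a knockdown and within control. It measured 1.96, 2.05 and 1.90 CPM in Fam60a knockdown, 1.22, 0.557 and 3.66 CPM in Sin3a knockdown and 2.77, 2.75 and 2.83 CPM in control. Fam60a knockdown lay below control in all libraries, with a log2 fold change of −0.49 ± 0.49, adjusted p = 0.799. In Sin3a knockdown 2 libraries lay below all controls and replicate 3 above them, for a log2 fold change of −0.83 ± 0.54, adjusted p = 0.366. Without replicate 3 it was −1.59 ± 0.40 with an adjusted p of 0.0209 by edgeR, in a fit that called 24.5% of all genes. The 3 H3 genes with the most reads, Hist1h3c, Hist1h3e and Hist1h3a, had 46, 36 and 27 reads in all and at most 11 in any library, and the H4 genes Hist1h4d and Hist2h4 had 41 and 23, all below the filter.

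**Figure D3:**
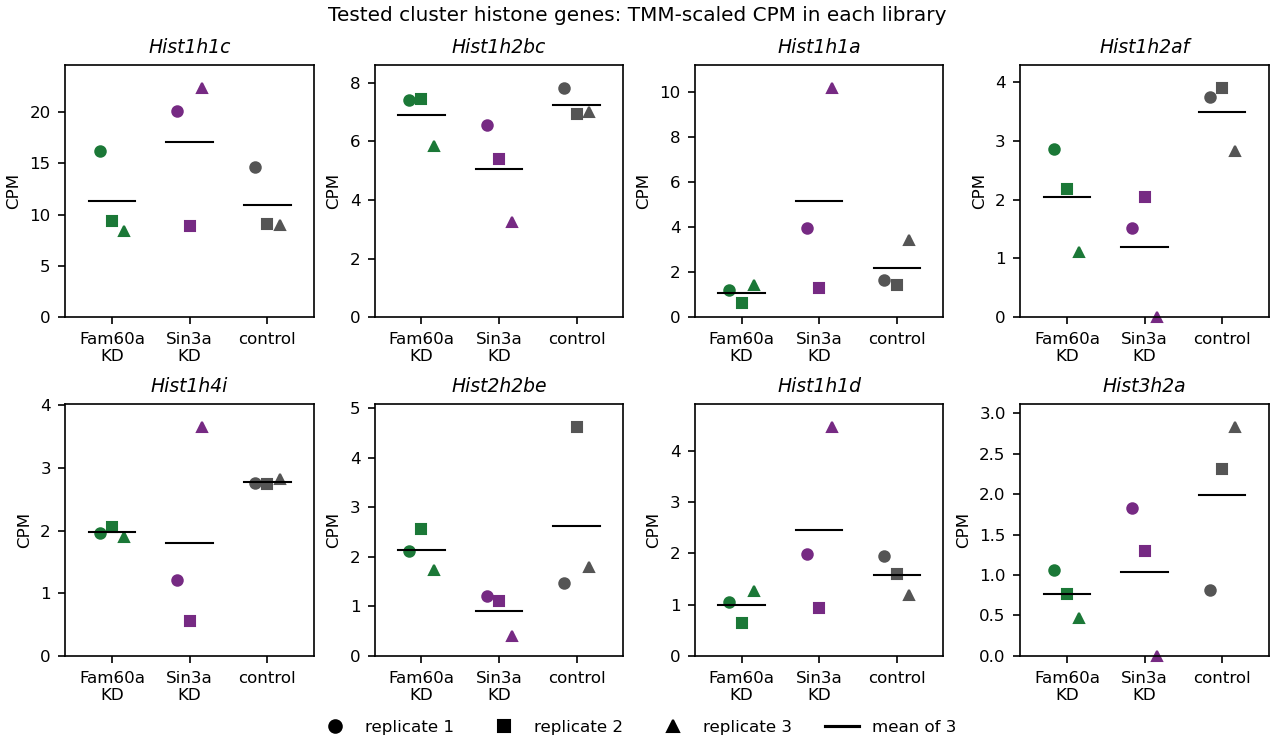
TMM-scaled CPM of the 8 cluster genes that passed the filter, in each library, with a separate linear axis from 0 for each gene and black lines at group means. Hist1h1a and Hist1h4i in Fam60a knockdown, and Hist1h2bc, Hist1h2af and Hist2h2be in Sin3a knockdown, lie below all control libraries.

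Variant genes are compared per length for their levels. In control cells H2afx, the variant phosphorylated at DNA breaks, was the highest at 94.9 ± 5.89 CPM per kilobase of exon, followed by H1fx at 45.0 ± 1.13, H2afv at 41.2 ± 3.03 and H3f3b at 34.4 ± 2.96. H1fx and H2afv did not differ beyond their spread. H2afy2 followed at 28.4 ± 3.99, H2afj at 24.8 ± 2.94, H2afy at 16.2 ± 1.04, H2afz at 10.96 ± 3.07 and H3f3a at 3.61 ± 0.75 CPM per kilobase (SD, n = 3 each). H2afy2 and H2afj were likewise within their spread. For comparison, Hist1h1c stood at 6.99 ± 2.09 and Hist1h2bc at 6.28 ± 0.42 CPM per kilobase in control. H2afb1, H2afb2 and H2afb3, which encode short H2A proteins known from testis, had 0 reads in all 9 libraries. At a limit of 3 counts this allows up to 0.391 to 1.15 CPM per library from reads that fit a single gene. Of their 50-base words 56.2%, 92.0% and 53.2% are unique, and reads from the rest could not be assigned.

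H2afx measured 133, 109 and 125 CPM in Fam60a knockdown, 124, 124 and 145 CPM in Sin3a knockdown and 140, 124 and 129 CPM in control. The groups overlapped, and the log2 fold change was −0.11 ± 0.12 in Fam60a knockdown, adjusted p = 0.859, and −0.01 ± 0.12 in Sin3a knockdown, adjusted p = 0.981, or −0.08 ± 0.09 without replicate 3. Since duplicate reads had been removed, the highest density in any library over all genes matched to GENCODE M21 was 0.944 reads per exon base of that annotation. H2afx reached 0.634, with 356 to 878 reads on 1384 bases, and H1fx, the next of the members, 0.317. A gene near that limit can show less than its full change in such counts, and how far this touches H2afx was not tested.

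H3.3 is the variant placed outside replication by the Hira and Daxx chaperones, and 2 genes encode it. H3f3b measured 117, 97.5 and 107 CPM in Fam60a knockdown, 107, 107 and 113 CPM in Sin3a knockdown and 112, 101 and 94.8 CPM in control. Its log2 fold changes were 0.06 ± 0.12 and 0.09 ± 0.12, both overlapping with control, with adjusted p of 0.948 and 0.668. H3f3a measured 13.3, 12.6 and 10.1 CPM in Fam60a knockdown, 9.30, 12.1 and 4.88 CPM in Sin3a knockdown and 14.7, 13.6 and 9.68 CPM in control. Its transcripts share 50-base words with 132 other genes, against 3 for H3f3b, and 12.0 ± 1.66 CPM in Fam60a knockdown was within the spread of 12.6 ± 2.62 CPM in control.

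H2A.Z, a variant enriched at gene starts, is also encoded by a pair of genes. H2afz measured 17.5, 26.2 and 16.8 CPM in Fam60a knockdown, 11.6, 16.9 and 26.4 CPM in Sin3a knockdown and 13.8, 24.7 and 19.8 CPM in control. In Fam60a knockdown and control alike, replicate 2 was the highest library. H2afv measured 69.9, 57.6 and 59.3 CPM in Fam60a knockdown, 70.3, 75.4 and 125.9 CPM in Sin3a knockdown and 72.8, 65.6 and 63.3 CPM in control. Fam60a knockdown lay below Sin3a knockdown in all libraries, with a log2 fold change of −0.53 ± 0.22 and an adjusted p of 0.251. Without Sin3a knockdown replicate 3 the fold change was −0.22 ± 0.11, adjusted p = 0.212.

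The macroH2A genes carry a large domain behind the histone fold and are known for repressed chromatin. H2afy2, which encodes macroH2A2 and lies at chr10:61738665-61784147 on the minus strand, was lower than control in all libraries of both knockdowns. It measured 55.1, 46.1 and 31.6 CPM in Fam60a knockdown and 50.2, 39.9 and 37.8 CPM in Sin3a knockdown, against 71.7, 58.3 and 55.4 CPM in control. The log2 fold change was −0.48 ± 0.22 in Fam60a knockdown, adjusted p = 0.351, and −0.53 ± 0.23 in Sin3a knockdown, adjusted p = 0.179. Replicate 1 was the highest library of each group, and with the replicate number as a block H2afy2 passed the threshold in Sin3a knockdown at −0.54 ± 0.14, adjusted p = 0.0491 by edgeR, where 15.0% of all genes were called. The blocked value in Fam60a knockdown was −0.50 ± 0.14, adjusted p = 0.0933. Both comparisons use the same control libraries. H2afy, which encodes macroH2A1, measured 120, 102 and 128 CPM in Fam60a knockdown, 105, 94.9 and 134 CPM in Sin3a knockdown and 118, 105 and 108 CPM in control, all overlapping, with log2 fold changes of 0.08 ± 0.15 and 0.01 ± 0.15, the second being −0.14 ± 0.11 without Sin3a knockdown replicate 3.

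H1fx, a linker histone outside the clusters, measured 42.8, 37.7 and 36.0 CPM in Fam60a knockdown, 45.6, 35.3 and 80.0 CPM in Sin3a knockdown and 55.2, 55.8 and 53.2 CPM in control. It overlaps Gm47286 on the same strand, though 100.0% of its 50-base words were found in no other gene. All Fam60a knockdown libraries and 2 Sin3a knockdown libraries lay below every control, and Sin3a knockdown replicate 3 lay above them. The log2 fold change was −0.49 ± 0.27 in Fam60a knockdown, adjusted p = 0.443, and −0.05 ± 0.27 in Sin3a knockdown, adjusted p = 0.933. Without Sin3a knockdown replicate 3 H1fx was called lower in Fam60a knockdown at −0.48 ± 0.12, adjusted p = 0.0239, and in Sin3a knockdown at −0.43 ± 0.13, adjusted p = 0.0432. That fit called 16.9% and 24.5% of all genes in these comparisons. H1fx has 71.3% GC, the highest value among the variants, and that library was high for GC-rich genes. A fit corrected for GC with all libraries gave −0.35 ± 0.20 in Fam60a knockdown, adjusted p = 0.407, and −0.34 ± 0.20 in Sin3a knockdown, adjusted p = 0.279.

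H2afj, an H2A variant, measured 30.1, 35.0 and 34.6 CPM in Fam60a knockdown, 40.7, 44.0 and 101 CPM in Sin3a knockdown and 40.2, 44.8 and 51.0 CPM in control. Fam60a knockdown lay below all libraries of both other groups. Against control the log2 fold change was −0.45 ± 0.32, adjusted p = 0.635, and against Sin3a knockdown it was −0.88 ± 0.33, adjusted p = 0.193. Without Sin3a knockdown replicate 3 it was called lower in Fam60a knockdown against control at −0.44 ± 0.12, adjusted p = 0.0366, and the value against Sin3a knockdown was −0.34 ± 0.13, adjusted p = 0.123.

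**Figure D4:**
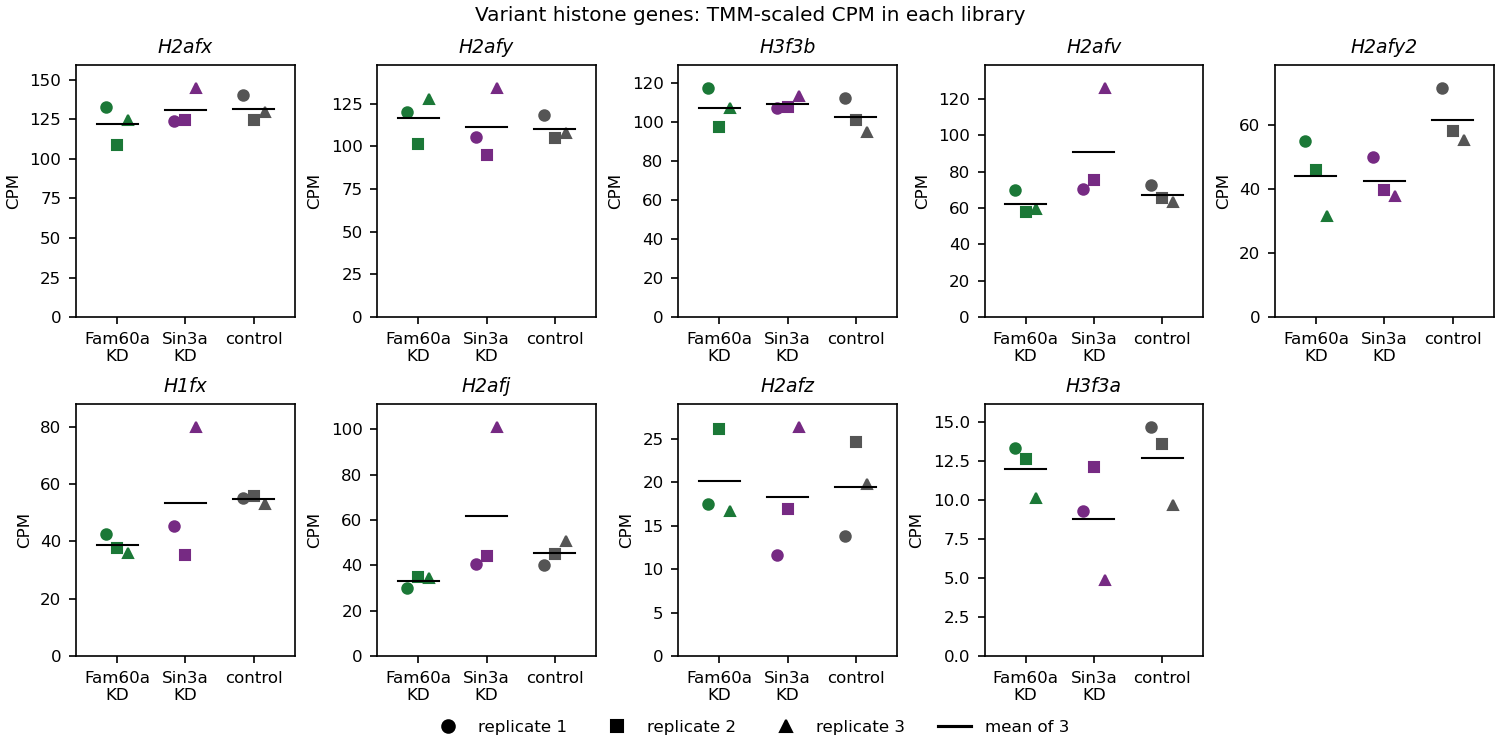
TMM-scaled CPM of the 9 variant genes that passed the filter, in each library, with a separate linear axis from 0 for each gene and black lines at group means. H2afy2, H1fx and H2afj in Fam60a knockdown lie below all control libraries, and Sin3a knockdown replicate 3 is the highest library for H2afv, H1fx and H2afj.

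**Figure D5:**
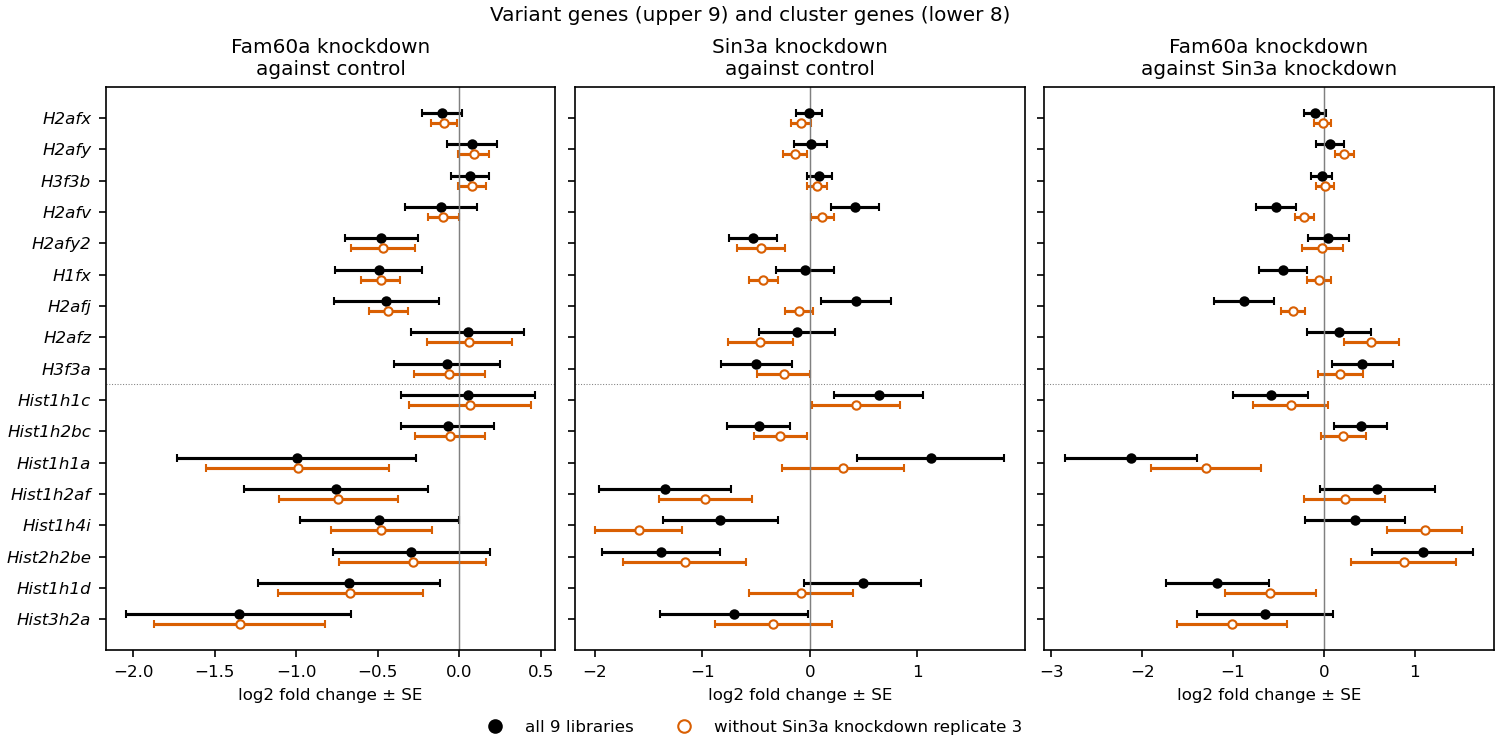
Log2 fold change ± SE of each tested member in the 3 comparisons, from edgeR fits with all 9 libraries (filled) and without Sin3a knockdown replicate 3 (open). In Fam60a knockdown against control the error is 0.73 for Hist1h1a and 0.12 for H2afx; Hist1h1a, Hist1h4i, Hist1h1d and H2afj move most between the fits in the comparisons that use Sin3a knockdown.

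The remaining members were near 0. Hist1h1t, Hist1h2aa and Hist1h2ba, the testis-type genes, had 11, 3 and 2 reads over all libraries. The antisense transcript H3f3aos had 38 reads, and the 7 pseudogenes had 0 to 15, with Hist1h2al the highest and H2af-ps at 0. Hist1h1e and Hist1h2be overlap on the same strand, so their 38 and 28 reads cannot be told apart where they overlap.

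Genes that make and process histone messenger RNA were then listed: 31 genes, among them Slbp, the activator Npat, the U7 component Lsm11 and the cyclin E genes. All 31 were tested and 0 were called in each of the 3 comparisons by edgeR, with 0, 2 and 1 at an unadjusted p under 0.05 in Fam60a knockdown, in Sin3a knockdown and between the knockdowns, where edgeR called 2.92%, 10.2% and 3.06% of all genes and 15.7%, 25.9% and 18.1% had such a p. DESeq2 called 0, 1 and 1, against 8.16%, 17.3% and 9.21% of all genes, and edgeR without Sin3a knockdown replicate 3 called 0, 2 and 2, against 16.9%, 24.5% and 14.7%. The same shares of all genes apply to the lists that follow. The median log2 fold change of the 31 genes was −0.07 in Fam60a knockdown and 0.03 in Sin3a knockdown. Casp8ap2 was called under none of 17 alternatives in any comparison, and Lsm11 was called higher in Sin3a knockdown under 1. Slbp measured 82.9, 74.8 and 80.2 CPM in Fam60a knockdown, 88.7, 84.5 and 123.9 CPM in Sin3a knockdown and 83.4, 79.8 and 80.0 CPM in control, with log2 fold changes of −0.03 ± 0.16 and 0.28 ± 0.16, the second being 0.10 ± 0.08 without Sin3a knockdown replicate 3. Npat measured 121, 127 and 116 CPM in Fam60a knockdown, 146, 146 and 33.7 CPM in Sin3a knockdown and 134, 125 and 114 CPM in control, so a single library set its direction in Sin3a knockdown: −0.18 ± 0.42 with it and 0.24 ± 0.08 without it, adjusted p = 0.0554.

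Of 35 histone chaperones and variant loaders, 0 were called in Fam60a knockdown and 1, Ino80, fell in Sin3a knockdown, with 3 and 4 at an unadjusted p under 0.05 by edgeR and 1 call in each by DESeq2. Ino80, the motor of a remodelling complex that acts on H2A.Z nucleosomes, measured 163, 164 and 158 CPM in Fam60a knockdown and 148, 151 and 123.5 CPM in Sin3a knockdown, against 202, 207 and 213 CPM in control. No knockdown library reached the control range. The log2 fold change was −0.56 ± 0.11 in Sin3a knockdown, adjusted p = 0.0132, and −0.36 ± 0.10 in Fam60a knockdown, adjusted p = 0.111. The call in Sin3a knockdown held under 13 of 17 alternatives and was lost on the 6 libraries compared, adjusted p = 0.0564. In Fam60a knockdown Ino80 was called under 5 of 17, among them DESeq2, adjusted p = 0.00366, the fit without Sin3a knockdown replicate 3, adjusted p = 0.00276, and the 6 libraries compared, adjusted p = 0.00842. The H3.3 chaperone Hira measured 191, 172 and 190 CPM in Fam60a knockdown, 211, 180 and 281.5 CPM in Sin3a knockdown and 223, 198 and 205 CPM in control, with a log2 fold change of −0.18 ± 0.16 in Fam60a knockdown. Atrx, the remodeller that works with Daxx, measured 356, 428 and 397 CPM in Fam60a knockdown, 286, 336 and 184 CPM in Sin3a knockdown and 270, 312 and 279 CPM in control, higher than control in all Fam60a knockdown libraries, with a log2 fold change of 0.46 ± 0.20 and an adjusted p of 0.2997. At nearly the same fold change it was called under 3 of 17 alternatives: 0.47 ± 0.09 without Sin3a knockdown replicate 3, adjusted p = 0.00884, 0.47 ± 0.09 on the 6 libraries compared, adjusted p = 0.0144, and 0.46 ± 0.11 with GC correction and block, adjusted p = 0.0360. Between the knockdowns 0 of the 35 were called, with 5 at an unadjusted p under 0.05 and 1 by DESeq2. That 1 was Chaf1b, lower in Fam60a knockdown at −0.49 ± 0.12 by DESeq2, adjusted p = 0.0022. By edgeR it was −0.47 ± 0.11, adjusted p = 0.0614. Nasp lay below all controls in Fam60a knockdown at −0.22 ± 0.10, adjusted p = 0.365 by edgeR, or 0.0376 without Sin3a knockdown replicate 3. Daxx was called higher in Sin3a knockdown under 2 of 17 alternatives, and Chaf1a, Asf1a and Asf1b under none in any comparison. Without Sin3a knockdown replicate 3 edgeR called 4, 2 and 2 of the 35 in the 3 comparisons.

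S phase genes, which bear on how many cells were making histones, were 27 in number. Of these 0 were called in any comparison by edgeR or DESeq2, with 1 in each at an unadjusted p under 0.05, and 1, 0 and 2 were called without Sin3a knockdown replicate 3. Their summed level was 3829 to 4169 CPM in Fam60a knockdown, 4306 to 4529 CPM in Sin3a knockdown and 4119 to 4462 CPM in control. In such bulk samples fewer cells in S phase and less histone RNA per cell cannot be told apart.

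Some marker genes of cell states differed between groups and between replicates of a group, and their part in the histone values was not tested. The 7 primitive endoderm markers listed, none at 0, summed to 861 to 1365 CPM in Fam60a knockdown, 931 to 1239 CPM in Sin3a knockdown and 281 to 961 CPM in control. Both knockdown ranges overlapped with that of control. Within control, Gata4 measured 39.3, 29.6 and 142.6 CPM in replicates 1 to 3, and Dab2 71.35, 64.8 and 284 CPM. By edgeR with all libraries 0 of the 7 were called in Fam60a knockdown. Gata6, an endoderm transcription factor, was called higher in Sin3a knockdown at a log2 fold change of 1.29 ± 0.30, adjusted p = 0.0290. With the replicate block 4 of the 7 were called higher in Fam60a knockdown and 6 of 7 in Sin3a knockdown, against 6.13% and 15.0% of all genes called. The 10 fibroblast markers, of which 5 passed the filter, summed to 353 to 437 CPM in Fam60a knockdown, 349 to 396 CPM in Sin3a knockdown and 115 to 281 CPM in control, with no overlap with control. Most of that sum was Pdgfra, which is also on the endoderm list. The other 9 summed to 40.5 to 56.2 CPM in Fam60a knockdown, 22.1 to 56.9 CPM in Sin3a knockdown and 47.1 to 93.1 CPM in control. Control replicate 2 held 200 reads of Col1a1, against 48 and 42 in control replicates 1 and 3. It held 44 reads of Col3a1, against 3 and 6, and 12 of Postn, against 0 and 1. Col1a2 had 80 reads there, against 5 and 20, but 53, 31 and 87 in Sin3a knockdown replicates 1 to 3. Dcn and Fap were at 0 in every knockdown library and in control replicates 1 and 3. Their only reads, 4 and 2, were in control replicate 2. Thy1, a surface glycoprotein on that list, measured 19.8, 26.7 and 28.8 CPM in Fam60a knockdown, 8.38, 8.17 and 4.06 CPM in Sin3a knockdown and 21.8, 23.7 and 28.5 CPM in control. It was called lower in Sin3a knockdown than in control at −1.80 ± 0.29, adjusted p = 0.00816, and higher in Fam60a than in Sin3a knockdown at 1.82 ± 0.29, adjusted p = 0.0183. The 5 two-cell-like markers summed to 58.8 to 100.2 CPM in Fam60a knockdown, 36.6 to 51.2 CPM in Sin3a knockdown and 68.4 to 110.4 CPM in control. None of these 5 was called by edgeR with all libraries, 4 had an unadjusted p under 0.05 in Sin3a knockdown, and DESeq2 and the replicate block each called 3 lower there.

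Among the stem cell markers, the summed level in Fam60a knockdown lay below all controls. Fgf4, a growth factor of these cells, measured 155.4, 154.8 and 154.2 CPM in Fam60a knockdown, 157.8, 165.5 and 142.2 CPM in Sin3a knockdown and 208, 198 and 203.5 CPM in control. Both knockdowns lay below control without overlap. Fgf4 was called lower in Sin3a knockdown at −0.39 ± 0.10, adjusted p = 0.0335, a call that held under 7 of 17 alternatives, and was −0.39 ± 0.10 in Fam60a knockdown, adjusted p = 0.0646, called under 5 of 17.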

How the data were processed

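The authors deposited raw counts of reads per Ensembl gene for each of 9 libraries. Per the labels' protocols, total RNA was made into stranded TruSeq libraries and read as single ends of 50 bases. STAR 2.4.0j, Picard and featureCounts are named in the submitters' processing notes, and per the file headers duplicate reads had been removed before counting, which limits each position to few reads. Which genome build and annotation the authors counted on is not given in the sources used here. Symbols, positions and transcripts are those of GENCODE M21 (GRCm38), with 32918 of 37990 gene IDs matched.

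Counts were fitted with edgeR 4.0.16 in R 4.3.3 (filterByExpr, TMM scaling, 1 model of 3 groups, robust quasi-likelihood F-tests, Benjamini-Hochberg over 14465 genes, threshold 0.05), which is the source of every adjusted p unless DESeq2 is named. The estimated biological coefficient of variation was 0.25. CPM are TMM-scaled, ± is the SD of 3 libraries for levels and the SE for fold changes. The code was tested on simulated data. Alternatives were DESeq2 1.42.0, other scalings, no filter, the 6 libraries of a comparison alone, a replicate block, a GC correction, and leaving out each library.

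Libraries with the same replicate number deviated together across genes (all 9 pairs between 0.178 and 0.622 in r, different numbers between −0.448 and 0.113). That pairing comes from the data, not from the labels. Comparisons within a replicate number and the fits with a replicate block used it, while the model of 3 groups did not. The block lowered the SE of Hist1h1a between the knockdowns from 0.73 to 0.43. It raised that of Hist3h2a in Fam60a knockdown against control from 0.69 to 0.74.

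Members, gene lists and tests were chosen with earlier results of these data known. Named members were all tested variants and the 3 cluster genes with the highest mean CPM of each histone type. Of the other lists, genes called by edgeR with all libraries and a few fixed genes are named. Some cell-state markers are also named for their values in single libraries or their part of a sum. Protein sequences were not used here.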

Additional observations from a re-analysis of the deposited data

How the results depend on the processing

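Under 860 alternative settings of the 51 member comparisons, 10 passed the threshold and 42 had the other sign, 34 of these on leaving out a library. With the replicate block 1 member was called in Sin3a knockdown (H2afy2), and the block changed no other call of a member; all genes called became 887 in Fam60a knockdown, 2164 in Sin3a knockdown and 672 between the knockdowns, against 423, 1475 and 443. With GC correction and the block, 1 member was called in Fam60a knockdown (H2afy2), 1 in Sin3a knockdown (H2afy2) and 2 between the knockdowns (Hist1h1a at −1.98, adjusted p = 0.0245, and H2afj at −0.78, adjusted p = 0.0457), among 1691, 3331 and 1565 genes. GC correction alone gave 728 genes in Fam60a knockdown and 821 between the knockdowns. DESeq2 called 1181, 2507 and 1332 genes. On the 6 libraries compared, edgeR called 1827, 739 and 0 genes, and 1 member, H1fx in Fam60a knockdown (−0.48, adjusted p = 0.0210); for the 0, DESeq2 with all libraries called 1332 and 18.1% of genes had an unadjusted p under 0.05 in the fit of 9. Leaving out each library gave 11 to 2495 genes and 0 to 2 members in Fam60a knockdown, 521 to 3606 genes and 0 to 2 members in Sin3a knockdown, and 48 to 2166 genes and 0 members between the knockdowns; each highest value was without Sin3a knockdown replicate 3. The cause of these moves was not tested. The difference in cluster to variant log2 ratio between Fam60a knockdown and control was −0.40 to −0.29 on leaving out a library and −0.075 as a mean of log2(CPM + 1).

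Signs turned under the following alternatives. Most of these values were near 0 with all libraries, except in Sin3a knockdown H2afj (0.43) and Hist1h1d (0.49), between the knockdowns H1fx (−0.45) and Hist1h4i (0.34), and Hist2h2be in Fam60a knockdown (−0.30). In Sin3a knockdown against control H2afy was −0.003 with the block and −0.036 with upper quartile scaling, and H2afx was 0.012 with DESeq2, 0.017 with its size factors, 0.019 with no filter and 0.020 on 6 libraries. Between the knockdowns H3f3b was 0.005 with upper quartile scaling and H1fx 0.005 with GC correction and block. On leaving out a library, log2 fold changes in Fam60a knockdown were −0.181 to 0.278 for H2afz, −0.210 to 0.068 for H3f3a, −0.001 to 0.157 for H3f3b, −0.292 to 0.346 for Hist1h1c, −0.126 to 0.036 for Hist1h2bc and −0.551 to 0.412 for Hist2h2be. In Sin3a knockdown they were −0.431 to 0.240 for H1fx, −0.099 to 0.687 for H2afj, −0.080 to 0.084 for H2afx, −0.138 to 0.162 for H2afy, −0.458 to 0.137 for H2afz and −0.080 to 0.975 for Hist1h1d. Between the knockdowns they were −0.136 to 0.243 for H2afy2, −0.062 to 0.225 for H2afy, −0.084 to 0.521 for H2afz, −0.092 to 0.041 for H3f3b and −0.169 to 1.109 for Hist1h4i. Depth limits the cluster genes: 43 of 51 had 50 or fewer reads in all libraries together.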
